A study of Mus musculus with 6 samples.

Results

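The genes described here build the primary cilium and carry the Hedgehog signal through it. They were taken by symbol from a fixed list of 47 genes, and all 47 were found among the 24975 genes of the deposited count table. RNA was sequenced from mesoderm sorted at embryonic day 7.5. Control embryos were Mesp1-Cre/+;R26-tdTomato/+, and Gli3R embryos were Mesp1-Cre/+;R26-Gli3R-IRES-Venus/+, so that both groups carried Mesp1-Cre and 1 altered copy of R26. Mesp1-Cre acts from nascent mesoderm on, and Gli3R is Gli3, a transcription factor of the Hedgehog pathway, in its repressor form. The sources used here give the control libraries as tdTomato-sorted and the Gli3R libraries as Venus-sorted. The reporter and its gate therefore cannot be told apart from Gli3R in any comparison. There were 3 libraries per group of 1000 cells each, 1 per group from each of 3 litters, with littermates pooled, and the number of embryos in a pool is not given in the sources used here.

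The primary cilium is a single antenna-like projection built on a centriole. Trains of intraflagellar transport (IFT) proteins carry cargo along it, with IFT-B and kinesin-2 moving towards the tip and IFT-A and dynein-2 moving back. The transition zone at its base gates what enters, and the BBSome moves membrane proteins out. In vertebrates the Hedgehog receptor, Smoothened and the Gli proteins all pass through this structure, and it is needed both to make Gli activators and to process Gli3 into its repressor. Gli3R as a transgene already has the repressor form.

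Library totals ran from 5481190 to 12635151 counts, so that 1 count stood for 0.0777 to 0.186 CPM (counts scaled to library depth by the trimmed mean of M-values). Gli3, part of which the transgene carries, stood at 25.8, 29.5 and 34.4 CPM in controls 1, 2 and 3, against 43.6, 39.0 and 50.9 CPM with Gli3R; the log2 difference was 0.57 ± 0.15 (SE), which missed the threshold (edgeR quasi-likelihood, Benjamini-Hochberg or BH-adjusted p = 0.312). Control replicate 1, the shallowest library, stood apart on the first principal component, which held 35.3% of the variance. The summed level of 8 mesoderm markers was 491 to 534 CPM in controls and 558 to 598 CPM with Gli3R, with Pdgfra at 53.3 to 68.7 CPM and Hand1 at 118 to 207 CPM. The sum hides changes in both directions, since the median log2 fold change of the 8 was -0.29. At an unadjusted p under 0.05 (edgeR quasi-likelihood), 2 were higher and 2 lower, against 3.56% and 3.29% of all genes tested. Markers of other cell types were also read in these sorts. The summed level of 7 node and notochord markers was 9.77 to 47.3 CPM in controls against 5.06 to 9.16 CPM with Gli3R; Foxj1 was at 0 in every library, and Foxa2 had 19 reads in control and 0 in Gli3R libraries. Summed levels of 8 epiblast and neurectoderm markers were 37.8 to 86.6 and 30.4 to 41.9 CPM, those of 10 endoderm markers 322 to 552 and 490 to 630 CPM, those of 6 erythroid markers 185 to 417 and 183 to 638 CPM, and those of 5 extraembryonic ectoderm markers, with Elf5 at 0, 10.02 to 17.4 and 7.98 to 10.5 CPM. Their part in the values below was not tested, and in such bulk libraries fewer cells of a type and less RNA per cell cannot be told apart.

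Most of this machinery was read in every library. Of the 47 genes, 43 passed the filter on low counts and were tested. Hhat, Tctn1 and Gpr161 had 62, 56 and 3 reads in all, and Disp1 had none. Levels were compared between genes per kilobase of the longest RefSeq transcript, over the 6 libraries. A length was found for 46 of the 47, the exception being Tctn2. The median level of these 46 genes was 2.17 CPM per kb, against 5.77 CPM per kb for the 10925 tested genes of the table with a length, and 12 of the 46 lay above the latter. The 46 include the sparse Hhat, Tctn1, Gpr161 and Disp1, which did not pass the filter. Bbs2 and Ttc21b, in the middle of the 46, stood above 53.2% and 52.7% of the 16381 genes with a length and a read.

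The highest level was that of Rab34, with 44.0 ± 7.80 CPM per kb (SD, n = 6), followed by B9d1 at 42.6 ± 7.68, Ift20 at 37.1 ± 2.68, Ift27 at 36.4 ± 5.83, Ift74 at 31.1 ± 3.37 and Spop at 30.3 ± 2.72 CPM per kb. Neighbours in this order mostly overlapped in range over the libraries, as did 39 of 45 neighbouring pairs. Steps without overlap came below Spop, Ift52, Bbs5, Ift57, Ttc21b and Tctn1. Longer transcripts tended to stand lower in this order. Across the 45 genes with a read, Spearman's rho between length and level per kb was -0.79, against -0.57 across tested genes; length enters both sides of this relation, so that it is only a description. Taking the median length of a gene's RefSeq transcripts instead left 10 of 10 genes in the top 10.

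**Figure D1:**
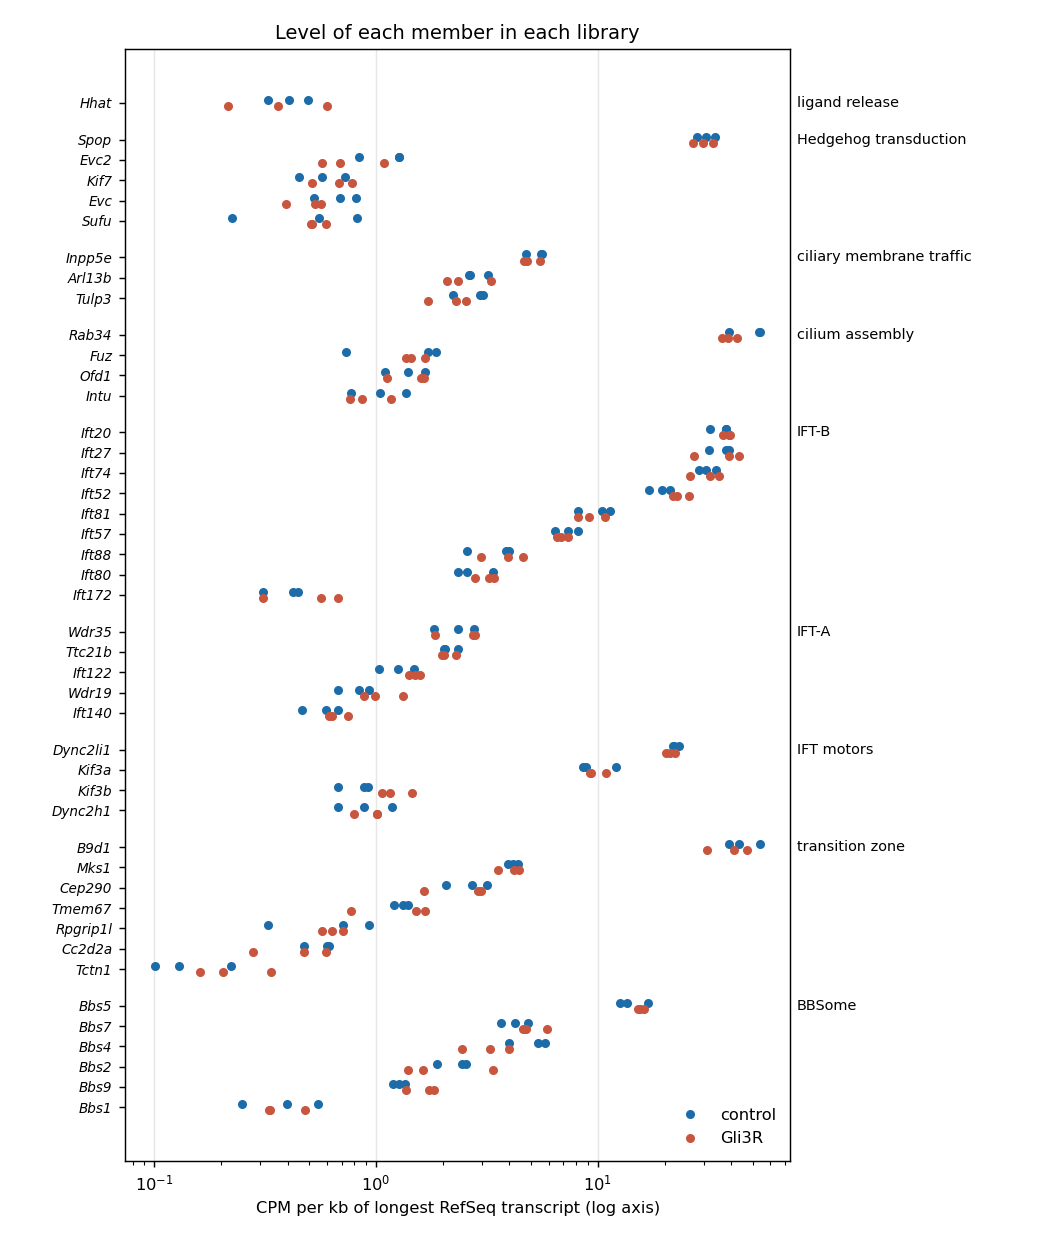
Level of each gene in each library in CPM per kb of transcript (log axis), by role, with control libraries in blue and Gli3R libraries in red; Gpr161 (3 reads), Disp1 (0 reads) and Tctn2 (no length) are left out. IFT-B runs from Ift20 at 37.1 to Ift172 at 0.455 CPM per kb, a far wider span than that of the libraries within a gene. This does not hold in every complex, since Evc and Evc2, at 0.587 and 0.954 CPM per kb, overlap in range over the libraries.

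None of the 43 tested genes passed when Gli3R was compared with control, which asks whether the pathway's repressor alters transcripts of the pathway's own machinery (edgeR quasi-likelihood test, two-sided, BH adjustment, threshold 0.05). Over all 11913 genes tested, 16 or 0.134% passed, with 3 higher (0.0252%) and 13 lower (0.109%), and DESeq2 also called 0 of the 43. At an unadjusted p under 0.05 there were 4 of 43, or 9.30%, namely Bbs4 and Rab34 at a lower and Kif3b and Ift52 at a higher level with Gli3R, against 6.85% of all genes tested (3.29% lower and 3.56% higher). Leaving out control replicate 2, control replicate 3 or Gli3R replicate 1 gave 2 such genes each. The groups did not overlap for 4 of the 43 genes, against 12% of all genes tested, and 10 of the 43 (23.3%) had a ratio of 1 sign in each of the 3 litters, against 30.3%. Of these 10, 6 were higher (14%, against 15% of all genes tested) and 4 lower (9.30%, against 15.3%). None of these shares stood far above the background.

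The median log2 fold change of the 43 genes was -0.01, as was that of all genes tested (-0.00787), and 20 genes lay above and 23 below 0. A p that misses the threshold does not show that levels were alike, so the intervals are given. The 95% interval lay within a 2-fold change in either direction for 37 of the 43 genes (86%), against 81.8% of all genes tested, and within a 1.5-fold change for 15 (34.9% against 55.3%). The 6 genes whose interval reached beyond 2-fold were Bbs4, Evc, Evc2 and Cc2d2a on the lower side and Kif3b and Ift172 on the higher side. The 43 tested genes were read less deeply than all genes tested. The median of the 43 genes was 9.53 CPM with a median standard error of 0.22 on the log2 scale, while all genes tested had a median of 18.5 CPM and a standard error of 0.17.

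**Figure D2:**
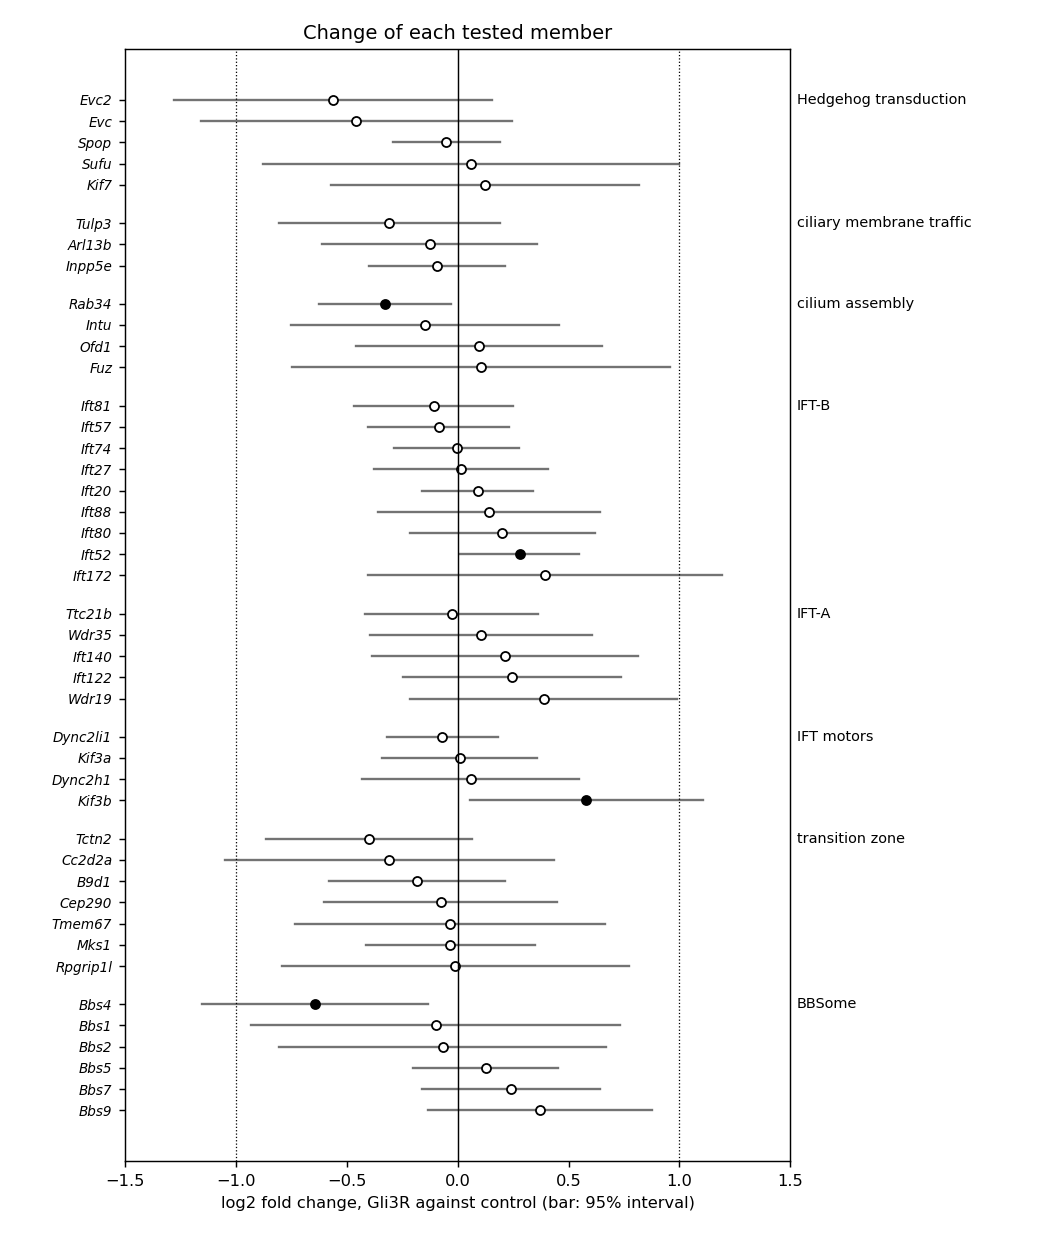
Log2 fold change of each tested gene with Gli3R against control, with its 95% interval, by role; filled points have an unadjusted p under 0.05, and dotted lines mark a 2-fold change. No interval outside 0 belongs to a gene that passed after adjustment, and 37 of 43 intervals lie between the dotted lines.

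Genes that process and release the Hedgehog ligand were at 0 or sparse. Disp1, whose protein releases the lipid-bearing ligand from the cell that makes it, had 0 reads in each of the 6 libraries, which allows at most 0.233 to 0.557 CPM per library if its transcripts were covered by the annotation used for counting, which is not given in the sources used here. Hhat, the acyltransferase that adds palmitate to the ligand, stood at 0.928, 1.15 and 1.395 CPM in controls 1, 2 and 3, against 1.71, 1.03 and 0.614 CPM with Gli3R. Its groups overlapped, and it was too sparse to be tested. The ligand genes themselves were sparser than Hhat, with 1 read of Shh and 3 reads each of Ihh and Dhh over all libraries. These limits cover counting error only.

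The genes that act on Smoothened and the Gli proteins were unequal in level. Spop, a substrate adaptor of the Cul3 ubiquitin ligase that binds Gli2 and Gli3, was the most abundant. It stood at 85.5, 103 and 94.6 CPM in controls against 91.1, 101 and 82.1 CPM with Gli3R. The log2 fold change was -0.05, with a 95% interval of -0.29 to 0.19. Sufu, which holds Gli proteins in the cytoplasm and is the main negative regulator after Smoothened, was sparse at 3.71, 2.50 and 1.015 CPM in controls against 2.33, 2.69 and 2.301 CPM with Gli3R. The control libraries thus spread over the whole range of the Gli3R libraries, and the interval of -0.88 to 1.00 around a log2 fold change of 0.06 was among the widest.

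Evc and Evc2 form a complex near the base of the cilium that passes the signal on from Smoothened. Evc2 stood at 5.20, 5.20 and 3.42 CPM in controls against 2.33, 2.82 and 4.45 CPM with Gli3R, lower in litters 1 and 2 and higher in litter 3. Its log2 fold change was -0.56 ± 0.32 (SE; edgeR quasi-likelihood test, BH-adjusted p = 0.877). Evc had 68 reads in control and 56 in Gli3R libraries, with a log2 fold change of -0.46 ± 0.31 and an interval of -1.16 to 0.25. Kif7, the kinesin that organises the ciliary tip and regulates Gli proteins there, had log2 fold change 0.12 ± 0.31 and lay between 2.04 and 3.53 CPM in all libraries. The summed level of these 5 genes was 107 ± 8.51 CPM in controls against 102 ± 8.84 CPM with Gli3R (SD, n = 3), most of it Spop.

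Genes of ciliary membrane traffic had point estimates below 0 in all 3 that could be tested, against 6178 of all 11913 genes tested. None was past the threshold, and 0 had an unadjusted p under 0.05. Inpp5e, the phosphatase that sets the lipid composition of the ciliary membrane, was the most abundant, at 23.0, 19.7 and 23.3 CPM in controls against 19.3, 19.99 and 22.7 CPM with Gli3R. Its interval of -0.40 to 0.22 lay within a 1.5-fold change. Arl13b, the ciliary GTPase that brings Inpp5e in, had a log2 fold change of -0.13 ± 0.22 and overlapping groups. Tulp3, the adaptor that loads G protein-coupled receptors onto IFT-A, stood at 10.2, 7.504 and 9.89 CPM in controls against 7.77, 5.77 and 8.59 CPM with Gli3R. It was lower in each litter, with a log2 fold change of -0.31 ± 0.22 (unadjusted p = 0.198 in the edgeR quasi-likelihood test). Gpr161, the constitutively active receptor that Tulp3 delivers and that restrains the pathway through protein kinase A, had 1 read in control and 2 in Gli3R libraries.

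Among genes needed to assemble the cilium, Rab34 had a low unadjusted p. Rab34, a GTPase of the ciliary vesicle and pocket, stood at 66.1, 90.0 and 90.9 CPM in controls 1, 2 and 3, against 64.9, 71.4 and 61.1 CPM with Gli3R. Control replicate 1 lay below Gli3R replicate 2, so the groups overlapped. The difference was small in litter 1, where the log2 ratio was -0.02, and larger in litters 2 and 3, at -0.33 and -0.57. The log2 fold change was -0.33 ± 0.13 (SE; unadjusted p = 0.0335, BH-adjusted p = 0.694, edgeR quasi-likelihood test). Without control replicate 1 it was -0.46, with an adjusted p of 0.172, the lowest that any of the 43 genes reached under any alternative.

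Intu and Fuz belong to the planar cell polarity effector complex that recruits IFT-A to the centriole. Intu, the least abundant of this group per length, stood at 8.72, 6.64 and 4.95 CPM in controls against 7.45, 4.87 and 5.52 CPM with Gli3R. Fuz lay between 1.25 and 3.15 CPM with a log2 fold change of 0.10 ± 0.38, and Ofd1, a centriolar satellite and distal centriole protein encoded on the X chromosome, was at 0.10 ± 0.25. The summed level of these 4 genes was 97.7 ± 10.8 CPM in controls against 80.8 ± 3.94 CPM with Gli3R, of which Rab34 made up 82.3 and 65.8 CPM.

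**Figure D3:**
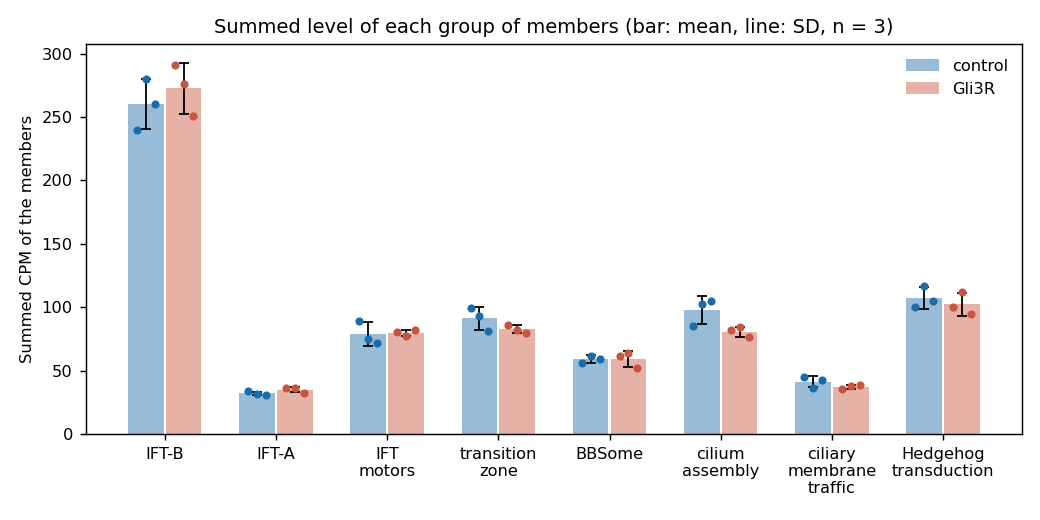
Summed level of each group of genes in CPM (bars: mean, lines: SD, points: the 3 libraries of a group), with control in blue and Gli3R in red. The largest group, IFT-B, sums to 260 CPM in controls against 273 CPM with Gli3R, and the cilium assembly group differs mainly through Rab34.

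IFT-B, the larger transport complex, held several of the genes with the highest levels per length, Ift20, Ift27, Ift74 and Ift52 among them. Ift20, which also links the complex to the Golgi, stood at 36.6, 43.4 and 43.0 CPM in controls against 44.4, 44.98 and 41.7 CPM with Gli3R. Its interval of -0.16 to 0.34 was one of the narrowest. Ift74 and Ift81, the partners that bind tubulin, were at 31.1 and 9.66 CPM per kb, with log2 fold changes of -0.00415 ± 0.13 and -0.11 ± 0.16. Ift27, the small GTPase that ties the complex to the BBSome, stood at 39.5, 38.5 and 32.1 CPM in controls against 43.8, 27.6 and 39.6 CPM with Gli3R, so that litter 2 went against the other two.

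Ift52, a core subunit that joins the parts of the complex, had 38.4, 47.8 and 43.8 CPM in controls against 57.8, 51.0 and 49.3 CPM with Gli3R. All 3 Gli3R libraries lay above all control libraries. This gave a log2 fold change of 0.28 ± 0.12 (SE; unadjusted p = 0.0427, BH-adjusted p = 0.714, edgeR quasi-likelihood test). Ift172, the largest IFT-B subunit, had the lowest level per length at 0.455 ± 0.145 CPM per kb. It stood at 1.67, 2.41 and 2.28 CPM in controls against 3.65, 1.67 and 3.07 CPM with Gli3R. Ift88, the gene mutated in the Oak Ridge polycystic kidney mouse, had 7.98, 11.9 and 12.3 CPM in controls against 14.2, 12.2 and 9.21 CPM with Gli3R. Ift57 and Ift80 had log2 fold changes of -0.09 ± 0.14 and 0.20 ± 0.19. Summed over the 9 genes, IFT-B was at 260 ± 19.99 CPM in controls against 273 ± 20.3 CPM with Gli3R.

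IFT-A genes were lower in level than most of IFT-B. Point estimates lay above 0 for 4 of 5, against 5735 of all 11913 genes tested, with 0 at an unadjusted p under 0.05. Wdr35 (IFT121), the most abundant per length, stood at 12.4, 10.6 and 8.24 CPM in controls against 12.3, 12.6 and 8.29 CPM with Gli3R, with litter 3 low in both groups. Ift140, the least abundant, stood at 3.71, 3.27 and 2.54 CPM in controls against 3.49, 4.10 and 3.38 CPM with Gli3R. Ttc21b (IFT139), whose loss raises Hedgehog output in the mouse neural tube, was steady at 8.84 to 10.5 CPM, with a log2 fold change of -0.03 ± 0.17. Wdr19 (IFT144) and Ift122 were at 0.39 ± 0.27 and 0.25 ± 0.22. The median log2 fold change of IFT-A was 0.21 and that of IFT-B 0.09, and the summed level of IFT-A was 31.9 ± 1.42 CPM in controls against 34.96 ± 2.24 CPM with Gli3R.

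The motors that drive IFT showed unequal levels of their subunits. Kif3a and Kif3b are the paired motor subunits of heterotrimeric kinesin-2. Kif3a stood at 9.82 ± 1.36 and Kif3b at 1.03 ± 0.264 CPM per kb (SD, n = 6), and their ranges did not overlap. Kif3b had 5.20, 5.00 and 3.81 CPM in controls against 8.15, 6.54 and 5.98 CPM with Gli3R. It was higher in each litter, and the groups did not overlap. Its log2 fold change was 0.58 ± 0.23 (SE; unadjusted p = 0.0336, BH-adjusted p = 0.694, edgeR quasi-likelihood test). Kif3a was at 0.01 ± 0.16, with control replicate 1 the highest of all libraries at 38.0 CPM. Dync2li1, the light intermediate chain of dynein-2, was the steadiest of the group, at 29.5, 29.9 and 31.3 CPM in controls against 28.8, 30.1 and 27.6 CPM with Gli3R. Dync2h1, the heavy chain with the longest transcript of the list, stood at 16.5, 12.3 and 9.39 CPM in controls against 14.1, 11.1 and 14.1 CPM with Gli3R. The 4 genes summed to 78.7 ± 9.31 CPM in controls against 79.9 ± 2.42 CPM with Gli3R.

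Transition zone genes had point estimates below 0 in all 7 that could be tested, from -0.40 for Tctn2 to -0.01 for Rpgrip1l. None was past the threshold, and 0 had an unadjusted p under 0.05. Of all 11913 genes tested, 6178 lay below 0. The sign turned for Rpgrip1l, Mks1, Tmem67 and Cep290 when single libraries were left out, and whether the group shifts as a whole was not tested. B9d1, a B9-domain subunit of the tectonic-like complex, was the most abundant, at 44.0, 31.9 and 35.3 CPM in controls against 33.5, 25.4 and 38.5 CPM with Gli3R. It was lower in litters 1 and 2 and higher in litter 3. Tctn1, of the same complex and the founding member of the tectonic family, was the sparsest, at 0.742, 0.577 and 1.27 CPM in controls against 1.16, 1.92 and 0.921 CPM with Gli3R. Tctn2 stood at 10.02, 10.7 and 7.48 CPM in controls against 7.53, 7.43 and 6.29 CPM with Gli3R, lower in each litter and with overlapping groups. The log2 fold change was -0.40 ± 0.21 (unadjusted p = 0.0828 in the edgeR quasi-likelihood test).

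Cc2d2a, mutated in Meckel and Joubert syndromes, had 75 reads in control and 71 in Gli3R libraries, with a log2 fold change of -0.31 ± 0.33. Mks1, the other B9-domain gene of the list, was steady at 8.90 to 11.0 CPM, and Tmem67, the membrane protein of the complex, was at -0.03 ± 0.31. Cep290, which bridges the microtubules and the membrane of the transition zone, stood at 21.7, 25.4 and 16.6 CPM in controls against 23.1, 23.7 and 13.2 CPM with Gli3R. Summed, the group was at 91.2 ± 9.26 CPM in controls against 82.7 ± 3.31 CPM with Gli3R. Within litters 1, 2 and 3 the log2 ratio of these sums was -0.21, -0.18 and -0.03, and the range of the Gli3R libraries (79.8 to 86.3 CPM) overlapped that of the controls (81.3 to 99.6 CPM).

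The RFX factors, which bind the X-box, are known regulators of many ciliary genes in many species. Of the 47 genes, 42 had a promoter (250 bases before to 50 after the start) in the RefSeq table of build GRCm38.p6. A consensus of the X-box was searched on both strands and found in 1 of the 42 (2.38%), against 0.685% of all genes in the table. That gene was Tctn2, shown because it is the only match. The stretch shown, chr5:124598679-124598708, is written on the plus strand, that of the gene, with 8 bases on each side of the match. The match, in capitals, starts 62 bases before the start of transcription and reads on the opposite strand.
Tctn2: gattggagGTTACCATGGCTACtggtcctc
The letters GACCACCCA of a Gli site, searched on both strands, were found in 0 of the 42 promoters and in 0.289% of all genes in the table. For both the X-box and the Gli site, no match says only that the letters searched are not in this window. Other forms of either site were not searched.

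The BBSome contained the lowest unadjusted p of the 43 genes. Bbs4, a subunit that links the BBSome to centriolar satellites, stood at 13.5, 14.6 and 10.02 CPM in controls 1, 2 and 3, against 8.23, 9.996 and 6.14 CPM with Gli3R. It was lower in each litter, by -0.69, -0.53 and -0.66 on the log2 scale, and control replicate 3 and Gli3R replicate 2 all but touched. Its log2 fold change was -0.64 ± 0.23 (SE; unadjusted p = 0.0188, BH-adjusted p = 0.563, edgeR quasi-likelihood test), with an interval of -1.15 to -0.13. Exons of Bbs4 overlap those of Adpgk on the other strand, and without strand in the counts reads of the shared part cannot be assigned with certainty. Adpgk was at 32.1 CPM in controls against 28.0 CPM with Gli3R on average, with a log2 fold change of -0.21 ± 0.19.

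Log2 fold changes of the other subunits lay on both sides of 0. Bbs5, a membrane-binding subunit and the most abundant, stood at 19.9, 18.5 and 24.9 CPM in controls against 22.7, 23.8 and 22.4 CPM with Gli3R. Bbs9 had 4.45, 4.71 and 4.19 CPM in controls against 6.06, 6.41 and 4.76 CPM with Gli3R, so that its groups did not overlap either, in the other direction; its log2 fold change was 0.37 ± 0.22 (unadjusted p = 0.131 in the edgeR quasi-likelihood test). Bbs7 was higher in each litter at 0.24 ± 0.18. Bbs2 was high in Gli3R replicate 1 at 10.3 CPM and low in the other Gli3R libraries at 5.00 and 4.30 CPM, around 5.75, 7.79 and 7.48 CPM in control. Bbs1, the subunit that binds the GTPase Arl6, was the sparsest at 2.23, 3.08 and 1.395 CPM in controls against 1.86, 2.69 and 1.84 CPM with Gli3R. The summed level of the 6 genes was 58.9 ± 3.07 CPM in controls against 59.2 ± 6.19 CPM with Gli3R.

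**Figure D4:**
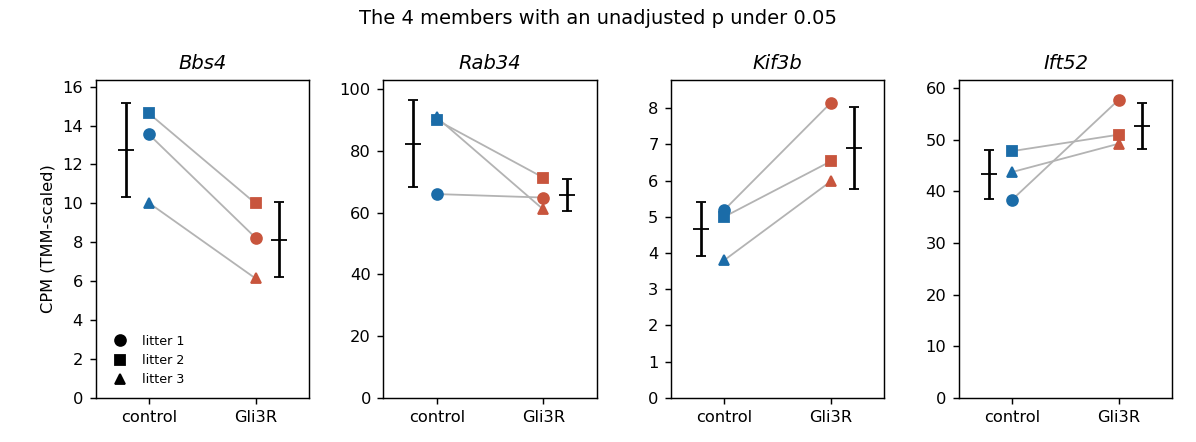
CPM of the 4 genes with an unadjusted p under 0.05, by group, with lines joining libraries of a litter and mean ± SD (n = 3) beside the points; axes start at 0. Bbs4, Kif3b and Ift52 differ without overlap, while control replicate 1 of Rab34, at 66.1 CPM, lies among the Gli3R libraries.

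Some genes also varied between litters, at shares near or below those of all genes tested. Both libraries of litter 1 lay above both of litter 3 for 9 of the 43 genes (20.9%), which were Bbs1, Cep290, Ift140, Ift80, Intu, Rpgrip1l, Sufu, Tctn2 and Wdr35, against 18.7% of all genes tested. The reverse held for Kif7 and Tmem67, or 2 of the 43 (4.65%), against 19.2% of all genes tested. Litter means of Cep290 spanned 0.71 on the log2(CPM + 0.5) scale, while its groups differed by -0.11. Rpgrip1l, which tethers the transition zone complexes and is mutated in Joubert syndrome, stood at 6.49, 5.00 and 2.28 CPM in controls against 4.43, 5.00 and 3.99 CPM with Gli3R. Its litter means spanned 0.73 and those of Sufu 0.74. With litter as a block, 0 of the 43 genes passed, against 0.227% of all genes tested, and 3 (6.98%) had an unadjusted p under 0.05, namely Bbs4, Kif3b and Rab34, against 8.73% of all genes tested.

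**Figure D5:**
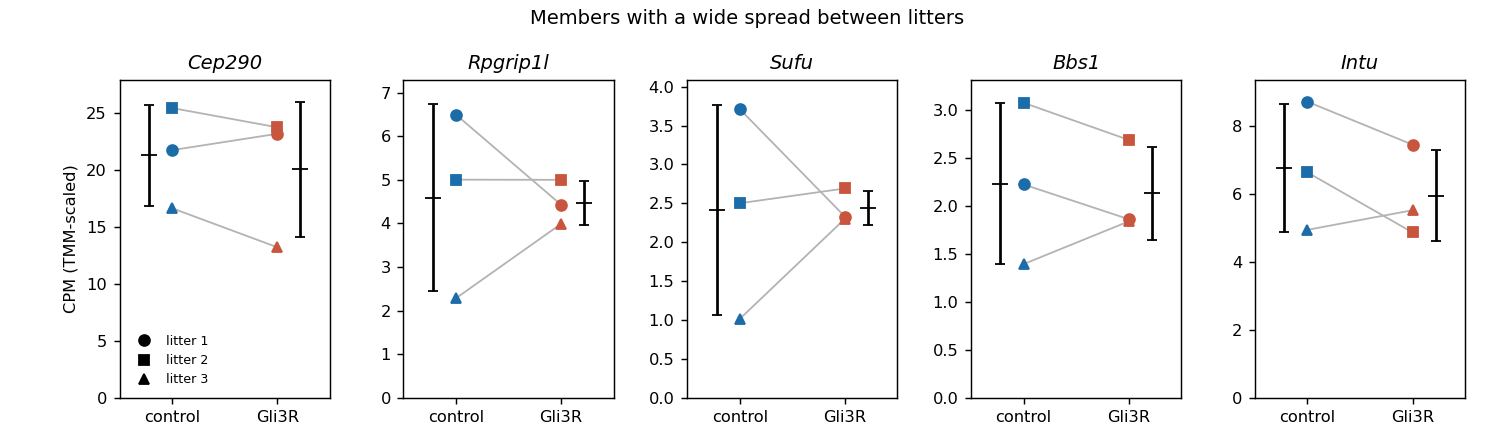
CPM of 5 genes with a wide spread between litters, by group, with lines joining libraries of a litter and mean ± SD (n = 3); axes start at 0. Litter 3 is low in both groups for Cep290, at 16.6 and 13.2 CPM, and lowest among control libraries in each panel. The latter follows from the choice, since all 5 are among the 9 genes with litter 1 above litter 3. Kif7 and Tmem67, which went the other way, are not shown.

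Lists of further ciliary genes also held no gene that passed. Of 15 further IFT genes tested, 0 passed, with 0 higher and 2 lower at an unadjusted p under 0.05, against 3.56% and 3.29% of all genes tested. These were the dynein light chain gene Dynlt1b and Traf3ip1 (IFT54). Dynlt1b stood at 326, 314 and 269 CPM in controls against 207, 259 and 246 CPM with Gli3R, and Traf3ip1 at 5.94, 5.39 and 6.21 CPM against 3.81, 3.97 and 4.45 CPM. Neither overlapped between groups, as was so for 12% of all genes tested. Both are shown for the smallest p of their list, so the lack of overlap adds no support. The log2 fold changes were -0.35 ± 0.11 and -0.52 ± 0.22 (edgeR quasi-likelihood, BH-adjusted p = 0.449 and 0.701). Kifap3, the accessory subunit of kinesin-2, was at 0.10 ± 0.13, beside Kif3b at 0.58. Of 14 further transition zone genes and 12 further BBSome genes and chaperones tested, 0 passed and 0 had an unadjusted p under 0.05. Those with the smallest p were Tmem237 and Tmem17 in the first list, and Lztfl1, which holds the BBSome out of the cilium, and Bbip1 in the second. Tmem237 stood at 32.1, 36.0 and 34.6 CPM in controls against 39.7, 38.6 and 43.4 CPM with Gli3R, and Tmem17 at 10.4, 9.43 and 12.3 CPM against 10.4, 8.71 and 6.29 CPM. Lztfl1 stood at 31.7, 36.7 and 36.5 CPM in controls against 29.2, 29.9 and 30.7 CPM with Gli3R, and Bbip1 at 61.6, 53.9 and 68.7 CPM against 69.6, 69.2 and 74.1 CPM. Groups overlapped for Tmem17 but not for the other 3, likewise shown for a small p, against 12% of all genes tested without overlap. The log2 fold changes of those 3 were between -0.23 and 0.24.

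Of 20 centriole and basal body genes tested, 0 passed, with 1 higher and 1 lower at an unadjusted p under 0.05, against 3.56% and 3.29% of all genes tested. Sclt1, of the distal appendages, stood at 12.6, 16.9 and 16.1 CPM in controls against 21.3, 21.4 and 17.95 CPM with Gli3R. Rab3ip (Rabin8), the exchange factor of Rab8, stood at 29.1, 26.6 and 20.8 CPM in controls against 17.6, 21.8 and 17.2 CPM with Gli3R. Their log2 fold changes were 0.40 ± 0.16 and -0.43 ± 0.17. The groups overlapped for Rab3ip but not for Sclt1, against 12% of all genes tested without overlap. Of 9 genes that act when the cilium is taken down, 0 passed and 2 were lower at an unadjusted p under 0.05, against 3.29% of all genes tested. Hdac6, the tubulin deacetylase, stood at 17.4, 20.1 and 19.4 CPM in controls against 13.0, 10.9 and 17.3 CPM with Gli3R. The mitotic kinase gene Aurka stood at 252, 293 and 280 CPM in controls against 235, 251 and 240 CPM with Gli3R. Neither overlapped between groups, as was so for 12% of all genes tested, and both are shown for the smallest p of their list. The log2 fold changes were -0.48 ± 0.18 and -0.19 ± 0.08. Medians of these 5 lists lay between -0.11 and 0.02, beside -0.00787 over all genes tested.

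Some transcription factors that switch on motile cilia were at 0 or sparse. Foxj1 and Mcidas had 0 reads, Gmnc had 1 and Noto 11, all 11 in control replicate 1. Of the RFX genes, Rfx7 and Rfx3 were the most abundant, at 17.9 ± 3.30 and 10.2 ± 0.649 CPM in controls against 17.5 ± 2.03 and 9.48 ± 1.54 CPM with Gli3R. Rfx5 was sparse, at 2.23, 1.25 and 1.52 CPM in controls against 2.87, 1.54 and 1.38 CPM with Gli3R. Myb, placed in this list for its role in multiciliated cells, stood at 5.75, 2.60 and 2.79 CPM in controls against 8.15, 11.8 and 7.98 CPM with Gli3R. At a log2 fold change of 1.38 ± 0.33 it missed the threshold (edgeR quasi-likelihood, BH-adjusted p = 0.234), but passed without the filter on low counts (0.0186) and with DESeq2 (0.0158). Of 17 genes of motile and nodal cilia in the table, 5 were abundant enough to be tested, 0 passed and 0 had an unadjusted p under 0.05. Dnah11, an axonemal dynein of the node, stood at 11.5, 11.6 and 8.37 CPM in controls against 8.93, 9.48 and 9.67 CPM with Gli3R, and Pkd2, a calcium channel of cilia, at 12.6, 8.27 and 13.95 CPM against 12.04, 11.8 and 13.96 CPM, while Dnah5 had 2 reads and Pkd1l1 none.

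Of 36 core Hedgehog signalling genes with a read, 26 were tested and 0 passed. Gli1 and Hhip were too sparse to be tested. Gli1 averaged 1.98 CPM in controls against 0.445 CPM with Gli3R, and Hhip 1.61 against 0.171 CPM. Their groups did not overlap, as for 12% of all genes tested. Scube3, also untested, went the other way with overlapping groups, at 0.295 against 0.600 CPM. An unadjusted p under 0.05 was found for 6 of the 26, against 6.85% of all genes tested. Of these, Gli3, part of which the transgene carries, Adcy6, Cdon and Prkaca were higher (3.56% of all genes tested), and Ptch1 and Btrc lower (3.29%). Whether this share differs from that of the ciliary machinery was not tested. Ptch1, which encodes the receptor and is itself a readout of the pathway, stood at 2.04, 3.66 and 2.92 CPM in controls against 0.621, 1.03 and 0.767 CPM with Gli3R. Smo, which encodes the transducer that enters the cilium when the pathway is on, stood at 38.6, 27.9 and 45.4 CPM in controls against 34.1, 30.4 and 32.2 CPM with Gli3R. Its groups overlapped, and its log2 fold change was -0.20 ± 0.17, against -1.89 ± 0.38 for Ptch1 (edgeR quasi-likelihood, BH-adjusted p = 0.960 and 0.169).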

How the data were processed

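The authors deposited raw counts per gene for 3 control and 3 Gli3R libraries. Per the labels' protocols, the SMARTer Ultra Low kit gave the cDNA and Nextera XT the libraries. The tools in the submitters' processing notes, whose roles are not stated, are TopHat2 2.0.14, Subread 1.4.6, featureCounts, edgeR and FastQC, with build mm9. The sources used here give no annotation, strand setting or handling of multi-mapped reads. Members and lists were chosen with earlier results of these data known.

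Genes were filtered by filterByExpr of edgeR 4.0.16 in R 4.3.3 (minimum count 10; 11913 genes kept) and scaled by TMM. The test was edgeR's quasi-likelihood test (two-sided; Benjamini-Hochberg, threshold 0.05, over all genes tested), and the script was tested on simulated data. Totals of 5481190 to 12635151 counts put the limit that a count of 0 allows (3 counts) at 0.233 to 0.557 CPM. A replicate number marks a litter, per the labels. Correlations of the deviations from group means were 0.168 in litter 1, 0.196 in litter 2 and 0.0744 in litter 3. Between libraries of different litters they ran from -0.282 to 0.174, so these values cannot show that the pairing is right. Littermates were pooled, and p-values measure the spread between these libraries. Alternatives were litter as a block, other scalings and filters, DESeq2 1.42.0, and leaving out each library.

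Every member is accounted for. Values in every library were to be given for Gli3, for members with an unadjusted p under 0.05, for the highest and lowest per length of each role, and for up to 2 genes with the smallest p of each other list. Further values of members and of Smo, Gli1, Hhip, Scube3, Kifap3 and the RFX genes were added after they were seen. Lengths are those of GENCODE vM21 transcripts with a RefSeq accession, of another build than the counts. Symbols turned into dates (27) were restored by Entrez gene ID. Of the 47 members, 10 have exons that overlap another gene on the opposite strand in that annotation (Bbs4, Cep290, Fuz, Ift57, Ift88, Inpp5e, Kif7, Ofd1, Tctn1 and Tmem67), and their counts are uncertain to that extent.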

Additional observations from a re-analysis of the deposited data

How the results depend on the processing

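Under each alternative, 0 of the tested members passed. The count of all genes that passed was 16; it was 27 with litter as a replicate block, 108 without the filter on low counts, 94 with DESeq2. Leaving out 1 library gave 0 to 18, with 9, 5 and 0 for Gli3R replicates 1, 2 and 3 and 18, 6 and 8 for control replicates 1, 2 and 3; by edgeR, the count of 0 went with 659 genes whose unadjusted p was under 0.05. Members at an unadjusted p under 0.05 numbered 4, but 2 with DESeq2 and 2 to 3 when a library was left out. Their median log2 fold change of -0.011 was 0.010 without the filter, which adds 3 sparse members, and -0.037 to 0.022 when a library was left out. For the other changes the cause was not tested. The block changed no call of a member.

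Of 43 tested members, 23 kept their sign under every alternative that could be computed, Bbs4, Rab34, Kif3b and Ift52 among them. Ift74, at -0.0041, turned to 0.00079 with DESeq2 size factors, 0.0076 with library size alone, 0.0043 without the filter, 0.0029 with at least 5 CPM in 3 libraries and 0.00075 with DESeq2. Ift27 turned to -0.011 with the block, and Rpgrip1l to 0.012 with the block and 0.0033 with library size alone. When a library was left out, log2 fold changes spanned 0 for Ift88 (-0.018 to 0.29), Ift74 (-0.098 to 0.10), Ift81 (-0.22 to 0.0045), Ift27 (-0.13 to 0.19), Wdr35 (-0.037 to 0.26), Ttc21b (-0.10 to 0.048), Kif3a (-0.075 to 0.17), Dync2h1 (-0.12 to 0.27), Mks1 (-0.092 to 0.047), Tmem67 (-0.26 to 0.28), Rpgrip1l (-0.34 to 0.27), Cep290 (-0.23 to 0.14), Bbs1 (-0.35 to 0.27), Bbs2 (-0.60 to 0.14), Fuz (-0.26 to 0.32), Intu (-0.36 to 0.054), Ofd1 (-0.052 to 0.25), Kif7 (-0.0048 to 0.31), Sufu (-0.31 to 0.43) and Spop (-0.13 to 0.024). Among genes of the other lists, the same held for Rfx5 (-0.13 to 0.55) and Pkd2 (-0.080 to 0.29), and Ptch1 passed without the filter (adjusted p = 0.0425, edgeR quasi-likelihood test). Disp1, Gpr161, Tctn1 and Hhat had too few counts to pass the filter.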

Other observations

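Some genes of the core Hedgehog list were chosen here after their values were seen, since their unadjusted p was under 0.05. Adcy6, an adenylyl cyclase that acts in the cilium, stood at 1.299, 0.385 and 2.03 CPM in controls 1, 2 and 3, against 3.34, 3.84 and 3.99 CPM with Gli3R. Prkaca, the catalytic subunit of protein kinase A, whose phosphorylation starts the processing of Gli3, stood at 23.0, 25.7 and 32.1 CPM in controls against 34.3, 33.7 and 37.9 CPM with Gli3R. Btrc, which encodes the ubiquitin ligase adaptor that binds phosphorylated Gli3, stood at 29.1, 24.2 and 23.6 CPM in controls against 20.8, 19.99 and 21.2 CPM with Gli3R. The groups did not overlap for any of these, as for 12% of all genes tested. Their log2 fold changes were 1.64 ± 0.47, 0.38 ± 0.14 and -0.31 ± 0.13 (SE; edgeR quasi-likelihood test, BH-adjusted p = 0.405, 0.620 and 0.717), so none passed. Cdon, a co-receptor of the ligand, was at 0.83 ± 0.28. The other kinase A genes Prkacb and Prkar1a were at -0.01 ± 0.16 and 0.14 ± 0.08.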
